A study of Mus musculus with 3 samples.

Results

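The genes described here are 33 mouse genes for the structure and secretion of autonomic neurons: nicotinic receptor subunits, neuronal filaments and tubulin, proteins of secretory granules and synaptic vesicles, neuronal RNA-binding proteins, and regulators of the autonomic lineage. They were picked by symbol, with values of these arrays already known, and all 58 probes (94 spots per array) that carry those symbols were read. All 33 passed the signal filter, among 22047 features (genes, or probes with no gene symbol) that did. The tested samples were aortas of 3 individual mice labelled Plk1(+/-), heterozygous for the mitotic kinase gene Plk1, and they were set against RNA of Plk1(+/+) aortas pooled from 3 animals. Animals of either genotype were aged 3 to 5 months and of strain 129/CD1, and total RNA was extracted with Trizol. Every array of the single slide carried 1 Plk1(+/-) sample in the red dye Cy5 and the same pool in the green dye Cy3, with no array dyed the other way round, so dye and genotype cannot be told apart. The pool counts as 1 control sample, which leaves the spread between wild-type animals unmeasured. The labels do not say how the allele was made.

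Postganglionic autonomic neurons have their cell bodies in ganglia, some of which lie beside the aorta, and send axons into the outer coat of the vessel. They receive acetylcholine through nicotinic receptors and release noradrenaline, acetylcholine and peptides from vesicles and dense-core granules onto smooth muscle. Chromaffin cells of the adrenal medulla and of paraganglia use many of the same granule and receptor genes. In RNA of whole aortas, fewer cells of a type and less RNA per cell cannot be told apart.

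The neuronal genes differed between the 3 Plk1(+/-) aortas far more than they differed from the pool in any common direction. Their median log2 ratio (Plk1(+/-) sample over wild-type pool, the measure used throughout) was 1.42 in sample 1, 0.55 in sample 2 and -0.30 in sample 3, against 0.03, 0.01 and 0.04 over all features. As folds, the median gene was 2.67-fold above the pool in sample 1 and 1.46-fold above it in sample 2, while in sample 3 the pool was 1.23-fold above the sample. Sample 1 read above sample 2 and sample 2 above sample 3 for 31 of 33 genes, all but Dcx and Syn1, and this order held for 20.8% of all features. The ratio was above the pool in samples 1 and 2 and below it in sample 3 for 30 of 33 genes, all but Chrna7, Chrnb2 and Syn1, against 9.92% of all features. Both patterns together held for 29 genes and for 7.14% of features. Chrnb4, Chrna7, Dcx and Ret were not well above background in the pool on any array, so the sign and rank of their ratios cannot be read. Among the 29 other genes, 28 were in the order, all but Syn1, and 27 had the signs, all but Chrnb2 and Syn1. These ratios were known when the genes were picked, so the counts describe the genes and carry no test.

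**Figure D1:**
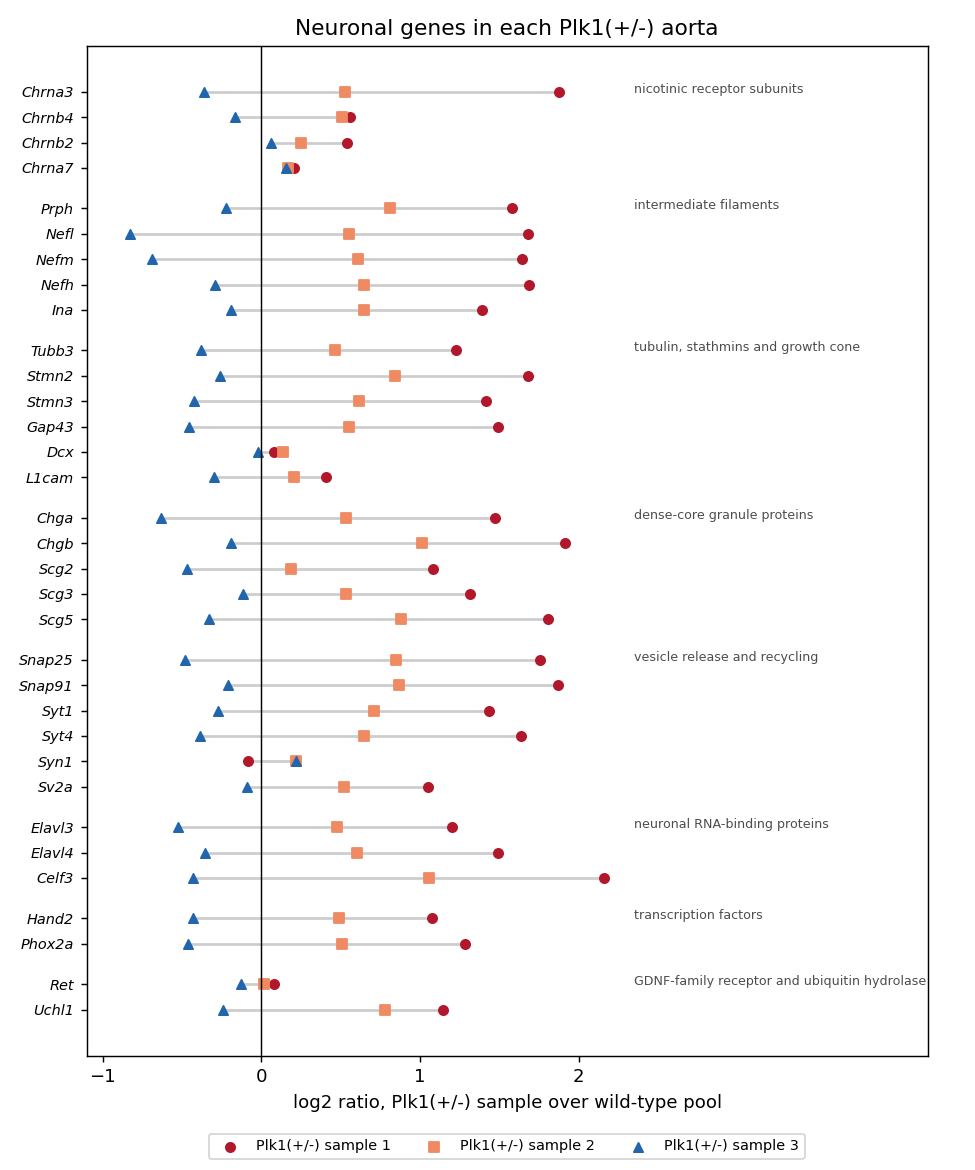
Log2 ratio of each of the 33 genes in each Plk1(+/-) aorta over the wild-type pool, on the brightest probe of the gene, grouped by role; the vertical line at 0 is equality with the pool and grey lines join the lowest and highest sample. Sample 1 (circles) lies furthest right for 31 genes, with values up to 2.16, and sample 3 (triangles) lies left of the line for 30.

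Of the probes, each of 60 bases, 6 covered 1092 or more bases of the genome, as a probe across an exon junction does, and the 5 of them that passed the signal filter are shown, since they match spliced RNA rather than genomic sequence. The capitals mark the 23 bases that the 2 Hand2 probes share. They are taken from the deposited files, whose positions are on mm7.
Chrna3, chr9:55043215-55045481, minus strand: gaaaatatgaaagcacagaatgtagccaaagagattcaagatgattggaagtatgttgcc
Gap43, chr16:42052862-42101027, minus strand: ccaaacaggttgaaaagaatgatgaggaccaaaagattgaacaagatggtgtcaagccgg
Hand2, chr8:55705289-55706648, plus strand: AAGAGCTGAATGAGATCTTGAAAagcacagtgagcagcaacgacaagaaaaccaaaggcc
Hand2, chr8:55705252-55706611, plus strand: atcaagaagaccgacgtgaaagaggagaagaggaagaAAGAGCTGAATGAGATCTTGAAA
Uchl1, chr5:66038170-66039261, plus strand: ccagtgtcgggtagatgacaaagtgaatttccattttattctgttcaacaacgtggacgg
These probes read 1.29, 0.63 and -0.25 for Chrna3 in samples 1, 2 and 3, 1.49, 0.55 and -0.46 for Gap43, and 1.84, 0.99 and -0.13 for Uchl1. The pair for Hand2 read 1.08, 0.49 and -0.43, and 0.89, 0.46 and -0.16. Each of these junction probes therefore showed the same order of samples as the group median.

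Chrna3 encodes the alpha subunit that most ganglionic nicotinic receptors contain. Its brighter probe (chr9:55041736-55041795, mm7) gave mean Cy5 signals of 1538, 551 and 274 in Plk1(+/-) samples 1, 2 and 3, against Cy3 signals of 186, 172 and 163 for the pool on the same arrays. The log2 ratios were 1.87, 0.53 and -0.36. Chrnb4 encodes the beta subunit that pairs with it in ganglia, and its gene is a chromosome 9 neighbour. It read 0.56, 0.51 and -0.17. Chrnb2, the beta subunit common in brain receptors, read 0.54, 0.25 and 0.06, and was above the pool in all 3 samples. Chrna7 encodes a subunit that forms receptors by itself and read 0.20, 0.17 and 0.16. It was the only gene besides Chrnb2 with 1 sign on all arrays, which 45.4% of all features had.

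For Chrnb4, Chrna7, Dcx and Ret, dim in the pool, the size and sign of the ratios cannot be read. As measured after loess, the mean of the Plk1(+/-) samples was 1.23-fold the pool for Chrnb4, which is not a bound. For Chrna7 it was 1.10-fold when dimmer pool signals were raised to the lowest signal well above background. Its mean ratio fell below the pool under median centring, as given below. For Dcx and Ret no fold can be given. The offset of 50 added after background correction also draws the ratios of such dim probes toward 0. In the deposited log ratio, which carries no such offset, Chrnb4 read 1.73, 1.34 and -0.61 in samples 1, 2 and 3 and Chrna7 read 1.37, 0.93 and 0.13, with the same limit.

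The lineage regulators Phox2a and Hand2 are transcription factors needed for noradrenergic differentiation of sympathetic neurons. Phox2a (chr7:97868615-97868674, mm7) gave Cy5 signals of 2011, 1234 and 553 in samples 1, 2 and 3, against 349, 368 and 316 in Cy3 for the pool. Its log2 ratios were 1.28, 0.51 and -0.46. Hand2 read 1.08, 0.49 and -0.43 on the brighter of its junction probes. Ret, the signalling receptor for GDNF-family ligands, read 0.08, 0.02 and -0.13 on a probe printed in 10 spots per array, whose spots scattered with SDs of 0.27, 0.18 and 0.28. The differences between its samples were about the size of that scatter.

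All 5 neuronal intermediate filament genes were above the pool in samples 1 and 2 and below it in sample 3. Peripherin, Prph, is the filament subunit of peripheral neurons. It gave Cy5 signals of 5985, 3547 and 1432 in samples 1, 2 and 3, against 795, 827 and 641 for the pool, and log2 ratios of 1.58, 0.81 and -0.22. The neurofilament triplet Nefl, Nefm and Nefh, which sets axon calibre, read 1.68, 1.64 and 1.69 in sample 1. In sample 2 the triplet read 0.55, 0.61 and 0.65. In sample 3 Nefl was at -0.83 and Nefm at -0.69, the values furthest below the pool among the 33 genes, while Nefh was at -0.29. The fourth subunit of central neurofilaments, internexin (Ina), read 1.39, 0.64 and -0.19.

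Among the genes of microtubules and growth cones, neuronal beta-tubulin Tubb3 gave Cy5 signals of 13714, 8138 and 3850 in samples 1, 2 and 3, against 2248, 2324 and 1832 for the pool. Its log2 ratios were 1.23, 0.46 and -0.38. The stathmins Stmn2 and Stmn3, which regulate microtubule growth in axons, read 1.68 and 1.42 in sample 1, 0.84 and 0.61 in sample 2, and -0.26 and -0.43 in sample 3. Gap43 encodes a growth-cone membrane protein, and its values are those of the junction probe above. The adhesion molecule L1cam had a narrower range, at 0.41, 0.21 and -0.30. Dcx, doublecortin of migrating immature neurons, read 0.08, 0.14 and -0.02 on a probe near background.

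The granins are acidic proteins packed into dense-core granules with peptides and amines. Chga (chr12:100060167-100060226, mm7) gave Cy5 signals of 10869, 5337 and 2259 in samples 1, 2 and 3, against 1522, 1469 and 1306 for the pool. The log2 ratios were 1.47, 0.54 and -0.63. Chgb was the granin with the highest ratio in sample 1, at 1.91, followed by 1.01 in sample 2 and -0.19 in sample 3. Scg2, the precursor of secretoneurin, read 1.08, 0.19 and -0.47, and Scg3, which binds granins to the granule membrane, read 1.32, 0.53 and -0.12. Scg5, the chaperone of a prohormone convertase, read 1.81, 0.88 and -0.33. All 5 granule genes were in the group's order with the group's signs.

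The promoters of 3 granins and of Syn1 hold a cAMP response element or its core, a sequence bound by CREB-family factors. They are shown for their letters alone, since no link between the element and the ratios was tested. Each is the 250 bases before the annotated start, from RefSeq on GRCm38.p6, with the match to TGACGTCA, or to its core TGACGT for Chga, in capitals.
Scg2, chr1:79440027-79440276, minus strand: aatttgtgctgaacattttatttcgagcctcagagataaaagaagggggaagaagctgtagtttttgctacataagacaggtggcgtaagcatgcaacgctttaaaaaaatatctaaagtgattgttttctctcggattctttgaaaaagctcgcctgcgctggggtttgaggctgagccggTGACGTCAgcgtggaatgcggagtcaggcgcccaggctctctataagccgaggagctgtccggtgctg
Chgb, chr2:132781392-132781641, plus strand: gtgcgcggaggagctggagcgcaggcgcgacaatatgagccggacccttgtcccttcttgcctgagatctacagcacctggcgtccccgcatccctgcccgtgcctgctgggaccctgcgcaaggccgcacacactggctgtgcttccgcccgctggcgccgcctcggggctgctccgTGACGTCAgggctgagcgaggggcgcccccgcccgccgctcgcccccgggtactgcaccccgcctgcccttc
Chga, chr12:102554691-102554940, plus strand: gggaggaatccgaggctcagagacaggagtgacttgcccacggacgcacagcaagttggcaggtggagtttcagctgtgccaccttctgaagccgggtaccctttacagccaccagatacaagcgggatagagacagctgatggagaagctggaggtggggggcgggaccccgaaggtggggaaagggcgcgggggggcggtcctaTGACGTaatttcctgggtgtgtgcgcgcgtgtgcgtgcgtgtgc
Syn1, chrX:20920919-20921168, minus strand: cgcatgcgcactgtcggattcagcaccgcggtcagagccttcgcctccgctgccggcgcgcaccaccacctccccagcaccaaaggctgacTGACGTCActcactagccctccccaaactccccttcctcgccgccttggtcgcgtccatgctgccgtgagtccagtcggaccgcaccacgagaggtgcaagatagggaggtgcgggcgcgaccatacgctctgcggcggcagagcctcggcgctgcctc
The full element lies at -68 in Scg2, -72 in Chgb and -159 in Syn1, counted from the start to the first base of the match, and the core lies at -44 in Chga. Of 25 genes with a promoter entry, 3 (12%) held TGACGTCA, against 1.62% of 27025 mouse promoters of the same length, searched on both strands. Its core TGACGT, which every TGACGTCA contains, was in 7 (28.0%) against 6.56%. CAGCACC, the left part of the neuronal silencer element RE1, was in 4 (16%) against 5.70%, and the E-box CAGCTG, a motif of basic helix-loop-helix factors, in 6 (24.0%) against 12.8%. A match of letters is a description and not a bound site.

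Genes of synaptic vesicle release followed the same order except Syn1. Snap25, a membrane fusion protein of the nerve terminal, gave Cy5 signals of 17189, 9108 and 3734 in samples 1, 2 and 3, against 1939, 2002 and 1905 for the pool, and log2 ratios of 1.76, 0.85 and -0.48. Its 2 other probes read 1.57 and 1.86 in sample 1, 0.58 and 0.86 in sample 2, and -0.48 and -0.41 in sample 3. Snap91, a clathrin adaptor of vesicle recycling, read 1.87, 0.87 and -0.21. The calcium sensor Syt1 read 1.44, 0.71 and -0.27, and all 4 of its further probes kept the order and signs. Syt4, a synaptotagmin of dense-core vesicles, read 1.64, 0.65 and -0.39, and Sv2a, a vesicle membrane glycoprotein, read 1.05, 0.52 and -0.09.

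Syn1 encodes synapsin I, which tethers vesicles to actin, and was the clearest exception. Its brightest probe (chrX:19353787-19353846, mm7) gave Cy5 signals of 12791, 23840 and 26843 in samples 1, 2 and 3, against 5115, 7808 and 8203 for the pool. Both dyes were therefore lowest on the array of sample 1, and the log2 ratios were -0.09, 0.22 and 0.22. A further kept probe read 0.40, 0.11 and 0.23. The remaining kept probe that carries the symbol read 0.16, 0.00 and 0.08, but it lies on the plus strand at chrX:19378174-19378233, beyond Cfp, while the other Syn1 probes lie on the minus strand, so it is a Syn1 probe by its symbol alone. None of these probes showed the group's order. In the GRCm38.p6 gene listing, Timp1 lies within Syn1, and Cfp, a complement factor, is a neighbour. Cfp read -0.15, 0.34 and 0.84, and Timp1 read -0.50, -1.07 and -0.62. Whether transcripts of a neighbour reach the Syn1 probe was not tested.

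The neuronal RNA-binding proteins were highest in sample 1 as well. Celf3, a splicing regulator of the CUG-binding family, had the highest ratio of the 33 genes in sample 1. Its Cy5 signals were 8282, 5033 and 1869 in samples 1, 2 and 3, against 739, 977 and 949 for the pool, and its log2 ratios were 2.16, 1.06 and -0.43. That is 4.47-fold above the pool in sample 1, and 1.34-fold higher in the pool than in sample 3. Elavl3 and Elavl4, Hu proteins that stabilise neuronal messages, read 1.20 and 1.49 in sample 1, 0.48 and 0.60 in sample 2, and -0.53 and -0.36 in sample 3. Uchl1, the abundant neuronal ubiquitin hydrolase also known as PGP9.5, read 1.15, 0.78 and -0.24 on its brightest probe. That probe was saturated in Cy5 in sample 1, where the junction probe of Uchl1 read higher, at 1.84.

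The variation lay in the dye of the Plk1(+/-) samples. After normalization, the log2 signal of a gene varied over the 3 arrays by a median of 1.86 in Cy5 and of 0.23 in Cy3, the repeated pool. The Cy5 range exceeded the Cy3 range for 33 of 33 genes, with Cy5 ranges from 0.05 (Chrna7) to 2.51 (Nefh) and a highest Cy3 range of 0.72 (Syn1). For the dim Chrna7 the ranges were nearly equal, at 0.054 and 0.048. The same share and ranges over all features were not computed. Since Cy5 held 3 animals and Cy3 the same pool on each array, the count cannot be read as a trait of these genes. Replicate spots within an array differed little: Chgb, with 10 spots, read 1.91 ± 0.05, 1.01 ± 0.07 and -0.19 ± 0.05 (SD over spots) in samples 1, 2 and 3. Nefm, also with 10 spots, read 1.64 ± 0.04, 0.61 ± 0.07 and -0.69 ± 0.05. Tubb3 read 1.23 ± 0.07, 0.46 ± 0.02 and -0.38 ± 0.05 over 10, 8 and 10 spots. For these genes the steps between samples were larger than the spread of spots, which is technical error only.

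**Figure D2:**
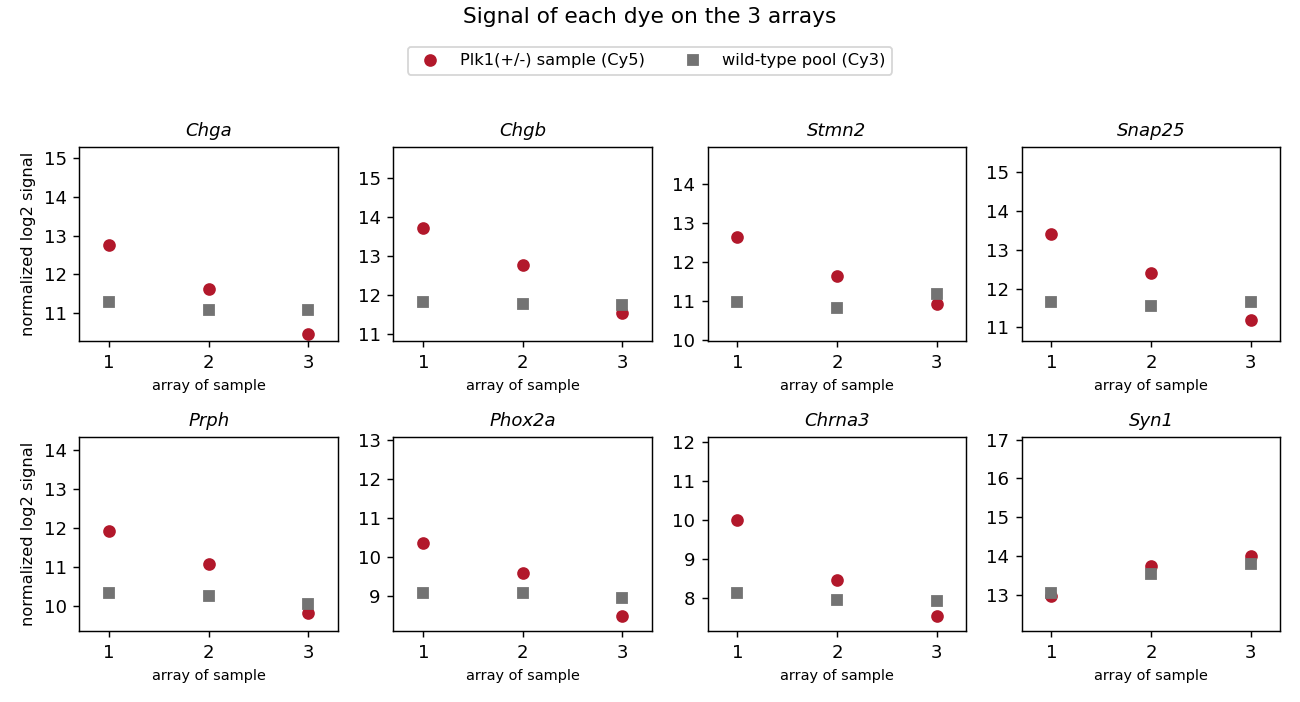
Normalized log2 signal of 8 genes on the 3 arrays, for the Plk1(+/-) sample in Cy5 (circles) and the wild-type pool in Cy3 (squares); each vertical axis spans 5 log2 units. In 7 genes the pool stays level while the circles lie above it for samples 1 and 2 and below it for sample 3; in Syn1 both dyes move together.

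Further probes of these genes gave the same picture. Of the 58 probes, 49 passed the signal filter, and 45 of these were in the order and 44 had the signs. Among 16 kept probes other than the brightest of their gene, 14 were in the order, and the 2 that were not both carry the symbol Syn1, 1 of them on the opposite strand, as given above. Of 11 genes with several kept probes, every kept probe was in the order for 10. The 9 probes that failed the filter gave no usable ratio and were further probes of Chgb, Chrna7, Dcx, Elavl3, Nefm, Snap91, Stmn2 and Syn1.

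With loess normalization, no gene passed the adjusted threshold against the pool. The median SD of the 33 genes over samples was 0.87, against 0.15 over all features, and 2.44% of features had an SD at least as high. In the limma fit across all features (moderated test of the mean ratio against 0, Benjamini-Hochberg adjustment), 0 of 33 genes had an adjusted p under 0.05, against 0.925% of features. Without adjustment 1 gene, Chrna7, had a p under 0.05, as did 19.0% of features. Chga averaged 0.46 ± 1.06, Snap25 0.71 ± 1.13, Phox2a 0.44 ± 0.87 and Chrna3 0.68 ± 1.13 (SD, n = 3 Plk1(+/-) samples). The median of the 33 mean ratios was 0.53, and it was 0.16 without sample 1, 0.48 without sample 2 and 1.02 without sample 3. A log2 ratio of at least 1 in sample 1 was read for 26 genes, against 1.47% of features, and the same number exceeded sample 3 by at least 1 in sample 1, against 2.60% of features. The median gap between samples 1 and 3 was 1.74, a 3.34-fold difference, and over all features it was 0.00.

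**Figure D3:**
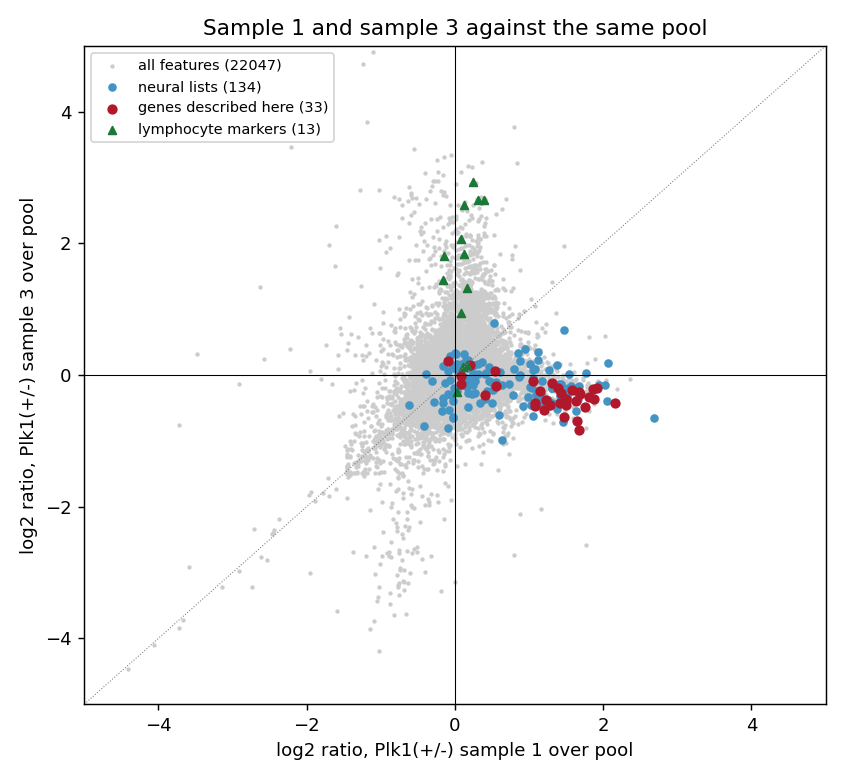
Log2 ratio over the wild-type pool in Plk1(+/-) sample 1 (horizontal axis) and sample 3 (vertical axis) for all features (grey), other neural genes (blue), the 33 genes described here (red) and lymphocyte markers (green); the dotted line marks equal ratios. The red points lie mostly right of 1 and just below 0, and the green ones lie near 0 on the horizontal axis and up to 2.93 on the vertical one.

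How far sample 3 lay below the pool depended on the dye normalization. With each array centred on its median in place of loess, the medians of the 33 genes were 1.83, 0.87 and -0.04 in samples 1, 2 and 3, with medians over all features of 0.21, 0.18 and 0.23. The order then held for 29 genes, but only 16 had the signs, since fewer fell below the pool in sample 3. The mean ratios of the dim genes Chrna7, Dcx and Ret were -0.28, -0.53 and -0.48 with this centring, against 0.18, 0.07 and -0.01 with loess, and that of Syn1 was 0.60 against 0.12. With this centring, 6 of 33 genes had an adjusted p under 0.05, against 44.3% of features.

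The label of the group was set beside autonomic markers outside it, which belong to the same arrays and carry the same pool. The lists were chosen with earlier results of these data known, so likeness to the markers describes the group and does not test its label. The noradrenaline synthesis and storage genes Th, Dbh, Ddc and Slc18a2 read 1.39, 1.31, 1.64 and 1.30 in sample 1. They read 0.73, 0.49, 0.72 and 0.64 in sample 2, and -0.42, -0.19, -0.55 and -0.42 in sample 3. The noradrenaline transporter gene Slc6a2 read 1.64, 0.65 and -0.24, and the co-transmitter gene Npy 1.38, 0.75 and -0.52. Gata2 and Gata3, transcription factors of sympathetic neurons, read 0.73 and 0.88 in sample 1, 0.20 and 0.33 in sample 2, and -0.13 and 0.00 in sample 3. Of the cholinergic markers, the choline transporter gene Slc5a7 read 1.18, 0.66 and -0.10, while Chat and Slc18a3 stayed at 0.12 and 0.11 or less in every sample. On every array, Cy5 and Cy3 signals of the 8 noradrenergic markers measured were well above background, while Slc18a3 was not in the pool on any array.

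Other neural genes, in 9 lists that share no gene with the 33, showed how widely the order ran. Of 134 measured (145 listed), 90 (67.2%) were in the order and 59 (44.0%) had the signs, with medians of 0.54, 0.27 and -0.15 in samples 1, 2 and 3. In the limma fit 0 of 134 had an adjusted p under 0.05, against 0.925% of all features, and 25 had an unadjusted p under 0.05, against 19.0%. The lists nearest to the 33 genes were neuronal RNA-binding and metabolic genes, with medians of 1.13, 0.47 and -0.36 and 8 of 9 in the order, and autonomic transmitter genes, with 1.17, 0.43 and -0.22 and 18 of 22. Cytoskeleton and adhesion genes had 18 of 21 in the order, other vesicle release genes 25 of 30, and granule biogenesis genes 6 of 8. Within them, the neuropeptide genes Vip and Cartpt read 2.68 and 2.05 in sample 1, 0.65 and 0.71 in sample 2, and -0.65 and -0.40 in sample 3. The axonal motor gene Kif5a read 1.95, 0.92 and -0.15, and the prohormone convertase gene Pcsk1 read 1.66, 0.60 and -0.37. The signs held for 9 of 21 cytoskeleton and adhesion genes, 13 of 30 other vesicle release genes and 4 of 8 granule biogenesis genes. Among those without them, Cpe read -0.28, -1.19 and -0.41 and Ncam1 -0.03, -1.21 and -0.64. Map1b read 0.17, -0.32 and -0.27, and Stx1a 0.18, -0.41 and -0.48. Pam was in the order but below the pool in every sample, at -0.42, -0.54 and -0.77.

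Other neural lists were nearer to the background share. Of 11 further nicotinic subunits measured, 3 were in the order. One of them, Chrna5, which lies in the same gene cluster as Chrna3 and Chrnb4, read 0.56, 0.46 and -0.10, and the muscle subunit Chrna1 read -0.17, -0.74 and -0.55. Of 13 neurotrophin and GDNF-family genes, 4 were in the order, among them Ngfr (1.56, 0.68 and -0.16), the low-affinity neurotrophin receptor. Of the coreceptor genes of Ret, Gfra2 read 0.03, -0.02 and 0.17, and Gfra3, also in the order, lay below the pool in all samples at -0.02, -0.37 and -0.65. Of 11 other autonomic transcription factors 5 were in the order, with Isl1 at 1.25, 0.36 and -0.38. Neuronal ion channels had 3 of 9 in the order, with Scn3b at 1.76, 0.91 and 0.03.

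**Figure D4:**
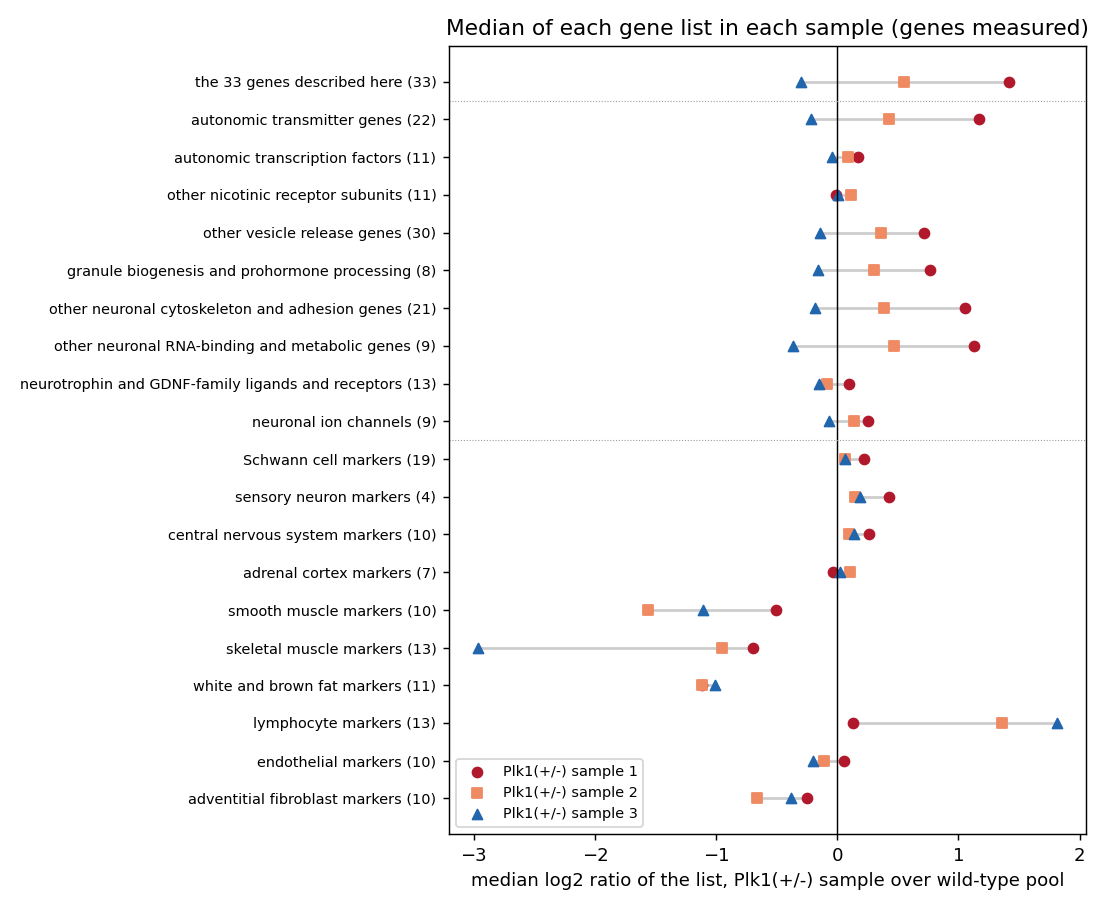
Median log2 ratio over the wild-type pool of each gene list in each Plk1(+/-) sample, with the number of genes measured in brackets; dotted lines part the 33 genes, the neural lists and the lists of other cell types. The autonomic transmitter genes read 1.17 in sample 1 and -0.22 in sample 3, close to the 33 genes, and the lymphocyte markers are lowest in sample 1 and highest in sample 3.

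Markers of other cell types also differed between the samples. Schwann cell markers had medians of 0.22, 0.06 and 0.07 in samples 1, 2 and 3, with 8 of 19 in the order. Within them Sox10, a transcription factor of glia, read 0.61, 0.21 and -0.06, and the myelin gene Mbp read 0.55, 0.41 and 0.40. Adrenal cortex markers had medians of -0.04, 0.11 and 0.02, central nervous system markers 0.27, 0.09 and 0.14, and sensory neuron markers, of which 4 of 8 were measured, 0.42, 0.15 and 0.19. Of those 4, 2 were in the order, and Avil, an actin-binding protein gene picked out here after its values were seen, read 1.28, 0.56 and -0.49. P2rx3 and Pou4f1 were not in the order: P2rx3 read 0.20, -0.03 and 0.32, and Pou4f1 read -0.002, 0.14 and 0.24. Lymphocyte markers ran opposite to the neuronal genes, with medians of 0.13, 1.36 and 1.81 and 0 of 13 in the order. Skeletal muscle markers read -0.69, -0.95 and -2.97, with 9 of 13 in the order and a median gap of 2.28 between samples 1 and 3. Endothelial markers had 6 of 10 in the order, with medians of 0.05, -0.11 and -0.20, so the order was not confined to neural lists. Smooth muscle markers read -0.51, -1.56 and -1.11, with 3 of 10 in the order. Fat markers, 6 of 11 on saturated probes, read -1.12, -1.12 and -1.01, with 1 of 11. Adrenal cortex, central nervous system and fibroblast markers had 1 of 7, 2 of 10 and 1 of 10 in the order. All 10 smooth muscle and all 10 endothelial markers passed the signal filter, as the tissue label asks. The part of these differences in the neuronal ratios was not tested.

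Signal was well above background for 77.0% to 80.8% of probe spots in Cy5 and 66.0% to 69.0% in Cy3, and precision is limited by having 3 arrays. Ratios of the arrays correlated at 0.42 (samples 1 and 2), 0.29 (1 and 3) and 0.56 (2 and 3) over all probes, which share the pool. Plk1 itself read -0.06, -0.08 and 0.42 (mean 0.10 ± 0.28, SD, n = 3, limma adjusted p = 0.705), so no lower signal of the targeted gene was detected in the samples labelled Plk1(+/-). Which part of the gene was changed in the allele is not given in the labels, and the probe may lie outside it.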

How the data were processed

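Per the file headers, spot intensity was measured with Agilent Feature Extraction 9.5.3.1 on probes annotated on mm7. The mean signals used here are uncorrected, while the deposited ratios are log10, Cy5 over Cy3, background-subtracted and dye-normalized. The authors' series values are log2 (slopes of 0.997 to 0.999 against the scanner ratio), cover 28817 of 41174 probes, and their centring is unstated. The labels' growth protocol describes embryonic stem cells, and the tissue label, aorta, was followed.

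Mean signals were corrected with normexp (offset 50) and normalized by loess within arrays in limma 3.58.1 (R 4.3.3, data.table package, 1.17.8). Outlier spots were left out, and spots of a probe averaged. A probe needed signal well above background, in Cy5 or Cy3, on 2 arrays or more, and the brightest stood for its gene. Symbols were updated through GRCm38.p6 (22951 probes by accession, 3109 by synonym; 6659 were current; 8455 kept the file's name). Ratios were tested against 0, two-sided, with lmFit and eBayes, adjusted over all features, after a check on simulated data. The labels call the samples biological replicates. Members and lists were chosen with earlier results of these data known. Genes named are all 33, those measured among the leading 4 of each list, for neural lists also the 2 of largest mean ratio, autonomic markers and Plk1; Syn1's neighbours and the features in the closing section were chosen after their values were seen. Alternatives varied background, normalization, offset, value source, filter, saturation, probe rule, variance model, weights and samples. Some genes that the naming rule takes are not reported here.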

Additional observations from a re-analysis of the deposited data

How the results depend on the processing

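The order of samples held for 28 to 31 of the genes kept under each alternative, out of 29 to 33, and the signs for 27 to 30 except under median centring, where they held for 16. These counts and the medians per sample need all 3 arrays and have no leave-one-out value. The number of the 33 genes with 1 sign on all arrays, 2 in the chosen processing, was 1 with the deposited log ratio or with both dyes above background on all arrays, 0 with the authors' series values (30 genes), 3 with the mean of probes and 17 under median centring. It was 3 to 32 when 1 sample was left out, with 32 without sample 3. Adjusted calls among the 33 genes, 0 in the chosen processing (lowest adjusted p 0.26), were 6 under median centring (lowest adjusted p 0.0225) and 0 under every other alternative, with lowest adjusted p-values from 0.165 to 0.61. Calls among the 134 other neural genes were 28 under median centring, which called 44.3% of all features. Calls over all features, 204 (8 higher, 196 lower), were 125 with the deposited log ratio and 9763 under median centring, where 73.3% were higher against 3.92%. They were 0 of 21518 with saturated features left out (3806 at an unadjusted p under 0.05). Leaving out 1 sample gave 0 to 175 calls, with 0 without sample 2 (1983 unadjusted) and 0 without sample 3 (3094 unadjusted). Of 247 values of list medians under alternatives, 233 moved by less than their SD over the 3 samples, as did 413 of 421 mean ratios of single genes. For single genes this had to hold when 1 sample was left out or the variance model changed, so those values are no check. The SD was also wide, with a median of 0.87 over the 33 genes, so a small count of moved values says little about stability. The exceptions among the genes were Chrnb4, Chrna7, Dcx, Ret and Syn1, whose SDs were narrower, from 0.03 (Chrna7) to 0.41 (Chrnb4). The cause of these shifts was not tested. No paired analysis was possible because 1 group of samples was compared with 1 shared pool. Dim probes limit what can be said of Chrnb4, Chrna7, Dcx and Ret, and saturation what can be said of Uchl1.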

Other observations

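Many genes outside the lists had ratios like the neuronal ones. Within a distance of 0.3 (Euclidean, over the 3 log2 ratios) of the median profile of the 33 genes lay 102 features: 10 of the 33 genes, 21 genes of the neural lists, 1 of the other lists and 70 in none. The nearest with a plain symbol included Aplp1, a neuronal relative of the amyloid precursor, at 1.38, 0.52 and -0.26 in Plk1(+/-) samples 1, 2 and 3. Reep1, a shaper of axonal endoplasmic reticulum, read 1.48, 0.56 and -0.28. Ap3b2, a neuronal subunit of a vesicle coat adaptor, read 1.40, 0.49 and -0.33, and Svop, a synaptic vesicle protein related to transporters, read 1.53, 0.60 and -0.36. Eya1, a developmental transcriptional coactivator, read 1.45, 0.52 and -0.34, and Sgsm1, a regulator of small GTPases, read 1.40, 0.57 and -0.31. Bex1, Zcchc18, Nrip3, Ppp2r2c, Aldoc and Mllt11 completed the 12 nearest, with 1.34 to 1.45 in sample 1 and -0.38 to -0.19 in sample 3. These genes were chosen for their likeness, over 3 samples that share 1 pool, and the likeness is a description.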
